A study of Mus musculus with 5 samples.

Results

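The fibroblast growth factor (FGF) axis was examined in single cells of 5 mouse synovial sarcoma (SyS) tumors through 10 genes chosen by symbol among the 32286 features of the count tables: the ligands Fgf8, Fgf9 and Fgf18, the receptors Fgfr1, Fgfr2, Fgfr3 and Fgfr4, and the ERK feedback and target genes Etv4, Etv5 and Spry4. All 10 symbols were found, each once. All 5 tumors carried the same genotype, hSS2, in which human SS18::SSX2 is expressed from the Rosa26 locus after Cre activity, and all arose in limb tissue injected with TATCre protein at 8 days of life and were harvested at morbidity, so every group held the fusion and no tumor-free tissue was sequenced. The tumors differed in the histology written in their labels: 2 were BP (biphasic), 1 was MP (monophasic), 1 was MP+BP and 1 was PD+MP (PD, poorly differentiated), read from tissue next to the dissociated piece. TATCre enters any cell near the injection, so the cells that carried the fusion were not limited to 1 lineage by a promoter. The 2 BP tumors share a leading number in their titles whose meaning is not stated, and p-values below measure only the spread between these tumors.

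FGF ligands are secreted proteins that bind, with heparan sulfate, to 4 receptor tyrosine kinases; the bound receptors activate the RAS-MAPK cascade, ending in ERK. ERK signaling raises transcription of the ETS factors Etv4 and Etv5 and of inhibitors such as the Sprouty and DUSP proteins, which damp the cascade, so their transcripts are widely used as a readout of it, although other receptor kinases feed into the same genes. Fgf8 patterns the limb bud, the midbrain-hindbrain border and the facial primordia of the embryo, and FGF receptor signaling has been studied as a drug target in SyS.

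The 5 libraries held 8931 to 11565 called cells and 89996321 to 118649103 unique molecular identifiers (UMIs, 1 per captured transcript) each. After filters, 39559 cells remained, with a median of 6340 to 8536 UMIs per cell; 231 barcodes occurred in more than 1 library. Clusters were named from fixed marker lists, with all genes of the FGF lists kept out of the clustering. Of these cells, 22218 in 13 clusters were SyS-like (markers such as Sox2, Tle1 and Zic1; 2538 to 5955 cells per tumor), 3609 macrophage-like, 2429 endothelial-like, 1254 pericyte-like and 148 fibroblast-like; the last 2 classes together are called stromal. The 12 SyS-like markers summed to 3057 to 4701 CPM in SyS-like cells (CPM, UMIs of the gene scaled to a fixed total of all UMIs of that class in the tumor). In the other classes they reached 171 to 606 CPM (stromal), 114 to 182 (macrophage-like) and 95.4 to 225 CPM (endothelial-like). SyS-like marker transcripts were therefore present in the other classes at a lower sum, and their part in the values of the members was not tested. The median SyS-like marker stood in those 3 classes at 4.26%, 3.75% and 1.87% of its SyS-like level (medians over tumors). It reached 17.4% in stromal cells of the MP+BP tumor. The highest single marker ranged over tumors from 65.4% to 296% in stromal, 20.1% to 155% in macrophage-like and 22.2% to 31.8% in endothelial-like cells. Another 8640 cells in 7 clusters stayed unnamed. Levels are CPM over summed cells of a class; because 3′ counting captures genes unequally, they are compared between cells and not between genes.

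Fgf8 (chromosome 19: 45736798-45742915, minus strand, GRCm38), the ligand named above, was concentrated in SyS-like cells. Its level there was 22.5 CPM in BP tumor 1, 17.7 in BP tumor 2, 33.3 in the MP tumor, 18.9 in the MP+BP tumor and 44.7 in the PD+MP tumor (27.4 ± 11.4, SD, n = 5). In the same order it was 0.705, 2.84, 2.17, 7.01 and 2.88 CPM in stromal cells. It was 1.58, 1.90, 1.26, 0.481 and 3.10 CPM in macrophage-like cells. SyS-like levels exceeded those of both classes in each tumor and the ranges did not overlap. In endothelial-like cells Fgf8 was 1.25, 1.95, 1.41 and 2.65 CPM in the first 4 tumors and was not detected in the PD+MP tumor, where those cells held 582694 UMIs. The stromal (3.12 ± 2.35), macrophage-like (1.66 ± 0.96) and endothelial-like (1.45 ± 0.98) levels overlapped in range over the 5 tumors. These 3 classes were not tested against each other. SyS-like cells held 88.8% of all Fgf8 UMIs and 74.2% of all UMIs, and unnamed cells held a further 10.0% of the Fgf8 UMIs. In the 171 neutrophil-like cells, which had a median of 1892 UMIs, 14 Fgf8 UMIs gave 19.98 CPM, beside SyS-like markers at 1719 CPM.

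The members were set against each of 3 classes of the same tumors with edgeR's quasi-likelihood test on summed counts, with tumor as a block and Benjamini-Hochberg adjustment over all genes tested. All 3 comparisons use the same SyS-like sums. Against stromal cells 6 of the 10 members were higher in SyS-like cells and 1 was lower, where 15.4% of the 17121 background genes (those not used for clustering) were higher and 8.46% lower. Against macrophage-like cells 9 members were higher and 0 lower by edgeR, also 0 lower at an unadjusted p under 0.05 and by DESeq2, beside 37.8% and 21% of 17002 background genes. Against endothelial-like cells 8 were higher and 1 lower, beside 31.4% and 18% of 17196. The median log2 fold change over the 10 members was 1.34, 3.44 and 2.05 in the 3 comparisons, and that over the background genes was 0.24, 0.39 and 0.26. With total counts in place of TMM scaling the background medians were higher by 0.23, 0.57 and 0.22, and the share of calls in the higher direction went from 64.6%, 64.3% and 63.6% to 79.4%, 83.4% and 73.8%, while the members called were 6 higher and 1 lower, 10 higher, and 8 higher and 1 lower. Fewer transcripts per cell and fewer expressing cells cannot be told apart in such sums.

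For Fgf8 the log2 fold change was 3.02 (SE 0.45, adjusted p = 0.00139) against stromal, 3.39 (SE 0.28, adjusted p = 5.12e-07) against macrophage-like and 3.63 (SE 0.37, adjusted p = 2.25e-05) against endothelial-like cells. In these 3 classes Fgf8 stood at 6.53%, 6.92% and 5.56% of its SyS-like level (medians over tumors), beside 4.26%, 3.75% and 1.87% for the median SyS-like marker. In stromal cells of the MP+BP tumor the values were 37.0% for Fgf8 and 17.4% for the median marker. A UMI of Fgf8 was seen in 17.8% to 34.9% of SyS-like cells (median depth per tumor 8950 to 14037 UMIs) and in 0.232% to 1.97% of macrophage-like cells (4415 to 7107 UMIs). With every cell thinned to 3000 UMIs, the share was 4.85% to 11.9% (median 6.55%) against 0.261% to 0.883%. Shares and zero counts are subject to counting error, and the ranges over tumors are given in place of intervals.

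**Figure D1:**
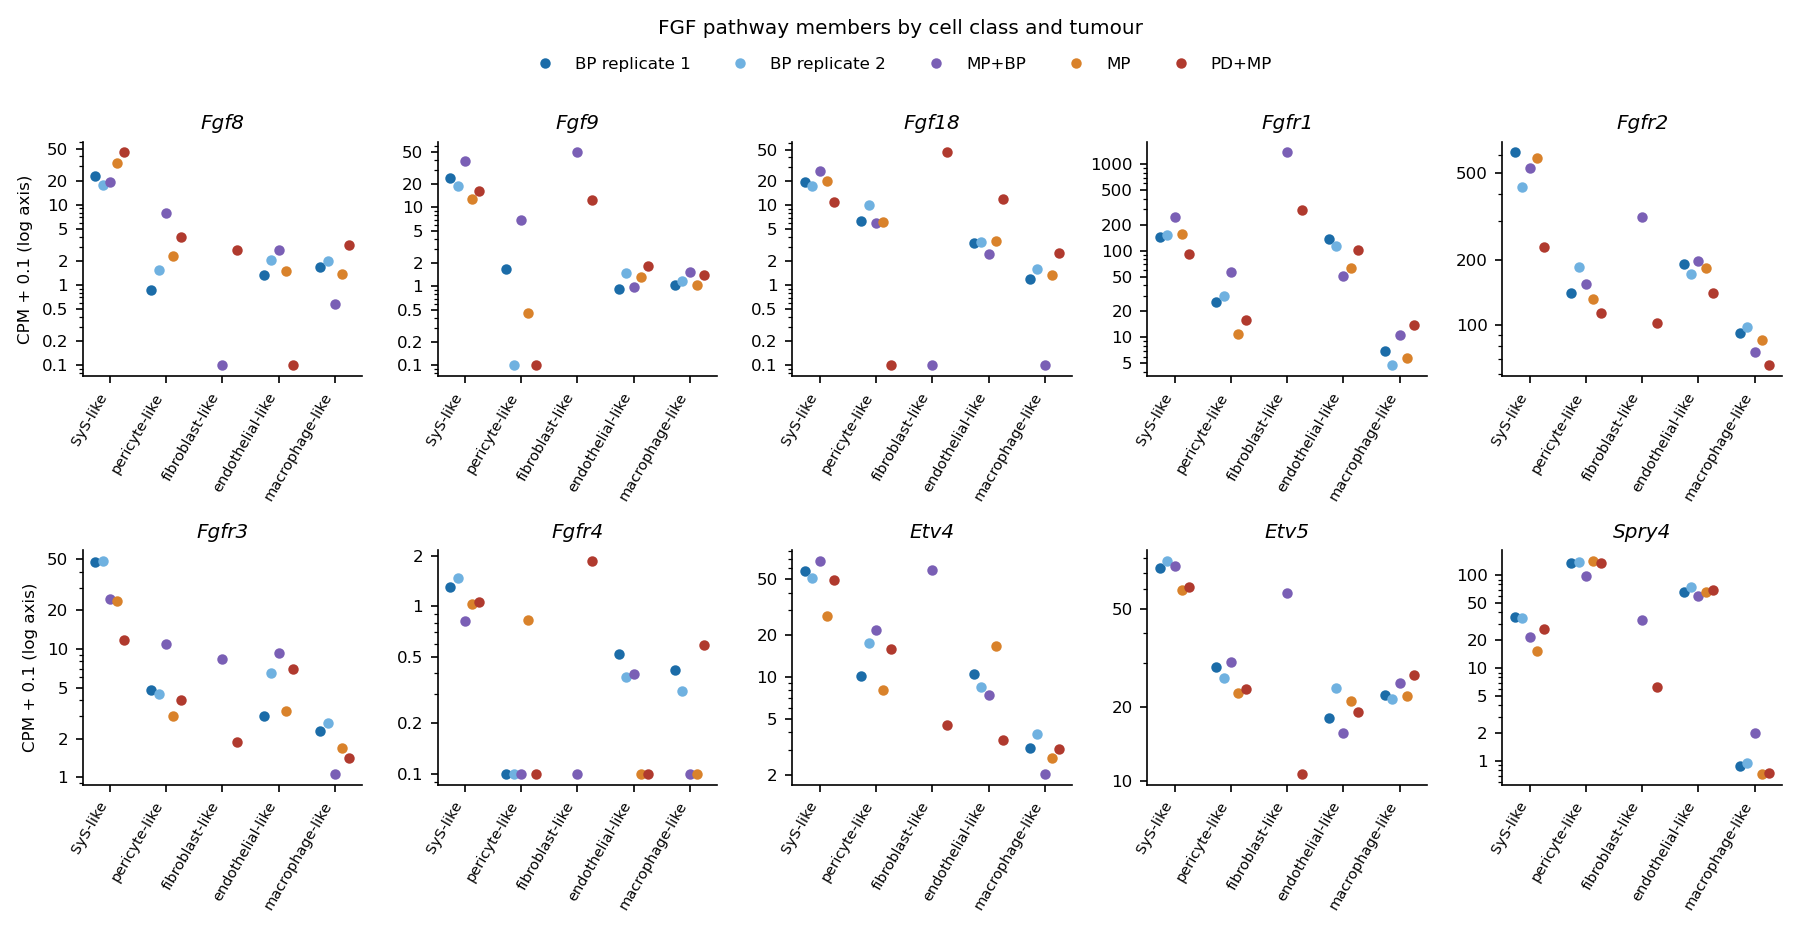
Level of each of the 10 members (CPM + 0.1, log axis) in SyS-like, pericyte-like, fibroblast-like, endothelial-like and macrophage-like cells, with 1 point per tumor in its own color; fibroblast-like sums of under 10 cells are left out, and a point at 0.1 has no UMI. The Fgf8 points of SyS-like cells (17.7 to 44.7 CPM) lie above those of the other classes, and the Spry4 points of pericyte-like cells (99.0 to 143 CPM) lie above the SyS-like points.

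Fgf9 (chromosome 14: 58070547-58112720, plus strand), which signals through the mesenchymal isoforms of the receptors, had SyS-like levels of 23.7, 18.6, 12.8, 38.6 and 15.9 CPM in the order of tumors used above (BP 1, BP 2, MP, MP+BP, PD+MP). Its stromal levels were 4.94, 2.84, 0.362, 11.4 and 10.1 CPM. The SyS-like level was higher in each tumor, but the PD+MP and MP+BP stromal sums came close to the lowest SyS-like values. The log2 fold change was 1.89 (SE 0.46, adjusted p = 0.0151) against stromal cells, and this call was lost without BP tumor 1 (adjusted p = 0.0624) or BP tumor 2 (adjusted p = 0.0524). It was 3.60 against macrophage-like and 3.98 against endothelial-like cells, both called. Fgf9 thus passed in all 3 comparisons, although its stromal call needed both BP tumors.

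Fgf18 (chromosome 11: 33117430-33147400, minus strand), a ligand of skeletal and lung development, had SyS-like levels of 19.8, 17.2, 19.9, 26.6 and 10.8 CPM. In stromal cells it was 7.05, 9.94, 6.16, 5.26 and 37.5 CPM, so the PD+MP tumor alone was higher in stromal than in SyS-like cells. That tumor contributed 123 of the 148 fibroblast-like cells, in which Fgf18 was 45.9 CPM. The log2 fold change against stromal cells was 0.62 (adjusted p = 0.439). Without the PD+MP tumor it was 1.37 (adjusted p = 0.00418), and with pericyte-like cells alone as comparator it was 1.43 (adjusted p = 0.00331). Fgf18 was higher in SyS-like than in macrophage-like (log2 fold change 3.09) and endothelial-like cells (2.11).

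Among the receptors, Fgfr2 (chromosome 7, minus strand), whose splice forms divide between epithelium and mesenchyme, was seen in a median of 67.5% of SyS-like and 20.2% of macrophage-like cells at 3000 UMIs. Its SyS-like levels were 619, 431, 585, 524 and 228 CPM, and its stromal levels 154, 185, 131, 171 and 104 CPM. SyS-like cells were higher in each tumor, with the smallest gap in the PD+MP tumor. The log2 fold changes were 1.40 (SE 0.19, adjusted p = 7.17e-04) against stromal, 1.89 against macrophage-like and 1.18 against endothelial-like cells, all called. Unlike Fgf8, Fgfr2 kept 32.6%, 14.9% and 37.6% of its SyS-like level in these classes. The gene model in GENCODE M21 runs from 130162451 to 133123350, or 2961 kb, where RefSeq gives 104 kb, and overlaps 30 other protein-coding genes, 14 of them on the same strand, so Fgfr2 UMIs are uncertain where reads of those genes could be assigned to it. Whether the authors' reference held this model is not given in the sources used here.

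Fgfr1 (chromosome 8: 25513654-25575718, plus strand), the receptor typical of mesenchyme, was 144, 150, 157, 244 and 92.3 CPM in SyS-like cells. Stromal cells had 61.3, 42.6, 10.9, 195 and 245 CPM. The last 2 tumors were high because of fibroblast-like cells, with 1365 CPM in 14 cells of the MP+BP tumor and 297 CPM in 123 cells of the PD+MP tumor, whereas pericyte-like cells ranged from 10.9 to 56.9 CPM. The log2 fold change against stromal cells was 0.87 (adjusted p = 0.332), but it was 1.48 (adjusted p = 0.0293) without the PD+MP tumor and 2.44 (adjusted p = 6.10e-06) against pericyte-like cells alone. Endothelial-like cells held 137, 115, 62.7, 51.5 and 103 CPM, overlapping the SyS-like range, and the log2 fold change of 0.57 did not pass (adjusted p = 0.123). Macrophage-like cells, at 4.66 to 13.8 CPM, were lower than SyS-like cells (log2 fold change 3.66, adjusted p = 4.36e-07).

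Fgfr3 (chromosome 5: 33721674-33737068, plus strand), known for restraining growth of cartilage, was 47.3 and 48.3 CPM in SyS-like cells of the BP tumors, 23.4 in the MP, 24.5 in the MP+BP and 11.7 in the PD+MP tumor. Its stromal levels were 4.94, 4.26, 2.90, 10.5 and 2.16 CPM, below the SyS-like level of the same tumor each time. It was higher in SyS-like cells than in stromal (log2 fold change 2.39, SE 0.36, adjusted p = 0.00133), macrophage-like (3.49) and endothelial-like cells (2.37). Fgfr4 (chromosome 13: 55152640-55168759, plus strand), the receptor of liver and developing muscle, was near its detection limit everywhere, with 337 UMIs in all SyS-like cells and 0.713 to 1.37 CPM per tumor. Only its endothelial comparison passed (log2 fold change 2.00, adjusted p = 0.0240), from 4 endothelial-like UMIs in all, and the adjusted p was 0.0605 by DESeq2.

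Of the feedback and target genes, Etv4 (chromosome 11: 101769742-101785371, minus strand), an ETS transcription factor, was 56.7, 50.5, 27.2, 67.2 and 49.2 CPM in SyS-like cells, whereas stromal cells had 11.3, 17.0, 7.97, 25.4 and 6.48 CPM. The related factor Etv5 (chromosome 16: 22381309-22439719, minus strand) was 72.8, 77.9, 59.3, 74.6 and 61.2 CPM in the SyS-like and 28.9, 28.4, 22.5, 33.3 and 13.0 CPM in the stromal sums. Both were higher in SyS-like cells in each tumor. The log2 fold changes of Etv4 were 1.74 (SE 0.25, adjusted p = 0.00112), 3.50 and 2.10 against the 3 classes and those of Etv5 were 1.27 (SE 0.20, adjusted p = 0.00172), 0.99 and 1.63, all called. Etv5 was the less restricted of the pair, at 21.4 to 26.9 CPM in macrophage-like cells.

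Spry4 (chromosome 18: 38586247-38601415, minus strand), a Sprouty inhibitor of receptor kinase signaling, had the opposite distribution. It was 35.9, 34.5, 15.3, 21.4 and 26.3 CPM in SyS-like cells. Pericyte-like cells had 137, 139, 143, 99.0 and 137 CPM, and endothelial-like cells had 66.3, 75.6, 66.7, 60.6 and 70.4 CPM. Both ranges lay above the SyS-like range. The stromal sum fell to 30.3 CPM in the PD+MP tumor, which was mostly fibroblast-like, and was 92.0 to 142 CPM in the other tumors. Spry4 was lower in SyS-like than in stromal cells (log2 fold change -2.14, SE 0.38, adjusted p = 0.00347) and endothelial-like cells (-1.61, SE 0.20, adjusted p = 8.46e-05) and higher than in macrophage-like cells (4.40), which had 0.630 to 1.92 CPM.

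**Figure D2:**
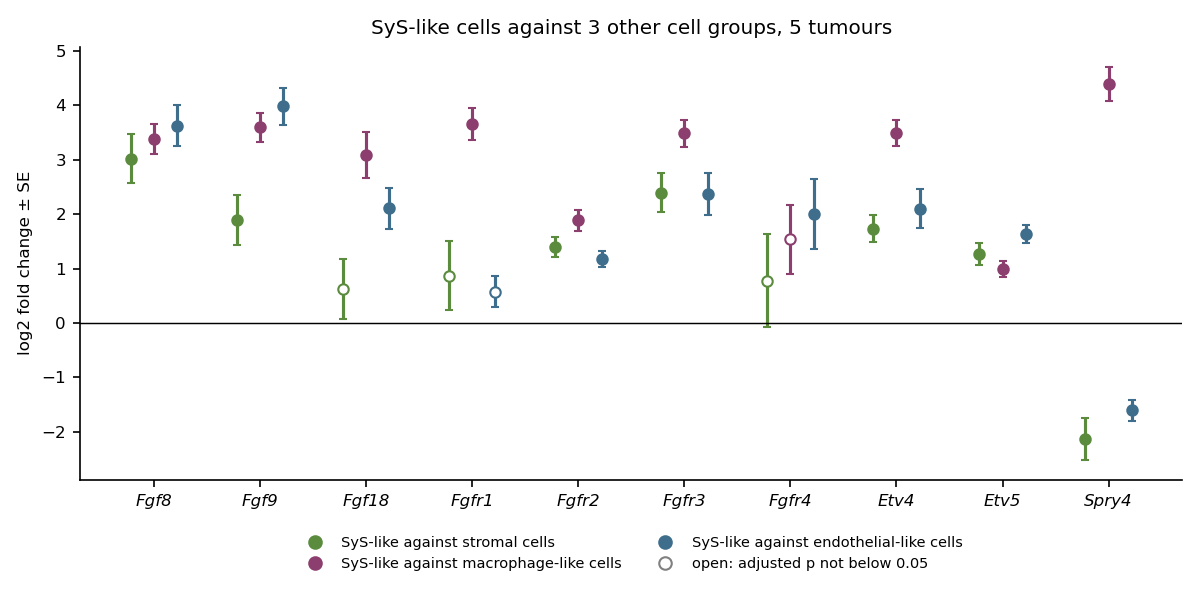
Log2 fold change of each member in SyS-like against stromal, macrophage-like and endothelial-like cells (points, with bars of 1 SE; open points did not pass an adjusted p of 0.05 by edgeR). Spry4 is the member called lower, against stromal and endothelial-like cells.

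The remaining genes of the pathway followed different patterns. The counts of each list below stand beside the shares of all background genes. These were 15.4% higher and 8.46% lower against stromal, 37.8% and 21% against macrophage-like and 31.4% and 18% against endothelial-like cells. Of 11 tested ligands outside the 10 members, 6 were higher in SyS-like than in endothelial-like cells and 0 lower by edgeR, led by Fgf16 (log2 fold change 5.66), Fgf10 (5.62), a mesenchymal limb ligand, Fgf15 (3.08) and Fgf20 (1.95). Against macrophage-like cells 6 of 11 were higher, with Fgf15 (6.49), Fgf10 (4.81), Fgf16 (3.90) and Fgf23 (3.75) in front, and 1 was lower. Against stromal cells 0 were higher by edgeR and 1 was lower, Fgf2 (-4.00). Fgf10 was 40.1 ± 27.8 CPM (SD, n = 5) in SyS-like and 11.6 ± 10.2 in stromal cells. The sums of several of these ligands in the other classes rest on few UMIs, such as 1 of Fgf15 in macrophage-like cells, so their fold changes depend on the prior count.

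The intracellular FGF homologues, which do not bind the receptors and act at sodium channels, were higher in 3 of 4 genes against stromal (Fgf14 4.02, Fgf13 2.84, Fgf11 1.67), 4 of 4 against macrophage-like (Fgf12 5.54, Fgf14 5.11, Fgf11 2.87, Fgf13 0.58) and 3 of 4 against endothelial-like cells (Fgf14 5.52, Fgf11 2.33, Fgf12 1.94). Fgf14 ranged from 1.41 to 336 CPM between the SyS-like cells of the 5 tumors. Of 11 receptor partners, 6 were higher and 2 lower against stromal, 9 higher against macrophage-like and 7 higher against endothelial-like cells. The same 4 led each time: the FLRT membrane proteins Flrt1 (log2 fold changes 3.64, 4.61 and 5.12) and Flrt3 (3.22, 3.61 and 4.05), Cnpy1 (3.16, 3.58 and 3.94), which aids maturation of the receptor, and the ligand carrier Fgfbp1 (2.68, 4.62 and 2.72). The SyS-like level of Flrt1 was 114 ± 38.0 CPM and its stromal level 9.47 ± 7.94 CPM (SD, n = 5).

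Of 13 tested other ERK feedback and target genes, 4 were higher and 3 lower in SyS-like than in stromal cells. Dusp6, the phosphatase that inactivates ERK, was higher (log2 fold change 1.98, SE 0.19, adjusted p = 1.06e-04), at 184 ± 54.1 against 42.1 ± 20.3 CPM, as was Spred3 (1.41), whereas Spry1 (-2.90) and Phlda1 (-1.82) were lower. Against macrophage-like cells 11 were higher and 2 lower, led by Il17rd (4.19), Spry2 (4.18), Dusp4 (2.49) and Spry1 (2.40). Against endothelial-like cells 2 were higher and 3 lower, with Spry1 (-3.40), Spred1 (-0.64) and Spred2 (-0.54) lower and Dusp4 (0.92) higher. Spry1 thus shared the direction of Spry4 in each comparison. Dissociation and stress genes moved between the same classes: 7 of 10 were lower in SyS-like than in stromal cells, led by Hspa1a (-4.09), Hspa1b (-3.56), Dusp1 (-1.70) and Jun (-1.44), 2 were higher and 5 lower against macrophage-like cells, led by Hspa1a (-3.21), Hspa1b (-2.52), Dusp1 (-1.72) and Egr1 (1.70), and 2 were higher and 7 lower against endothelial-like cells, led by Hspa1a (-2.80), Hspa1b (-2.23), Dusp1 (-2.07) and Ier2 (-1.01). Their part in the feedback genes was not tested.

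Within the SyS-like class, clusters 7 (1827 cells) and 22 (460 cells) stood apart for several members. Over the 13 clusters Fgf8 ranged from 9.28 CPM (cluster 7) to 59.7 CPM (cluster 16), Fgfr3 from 5.49 (cluster 22) to 55.3 (cluster 12) and Fgfr1 from 79.6 (cluster 11) to 641 CPM (cluster 7). In clusters 7 and 22 Bmp5 and Mgp were the first leading genes and Col1a1 stood at 2074 and 2086 CPM. These clusters held 5 and 6 of the 12 SyS-like markers, where cluster 13 held 4 and cluster 0 held 8. The SyS-like marker Penk and the fibroblast-like marker Col1a1 were both among the leading genes of cluster 7, so its naming was less clear. Over all tumors clusters 7 and 22 had the lowest Fgf8 (9.28 and 9.68), Fgfr3 (8.20 and 5.49) and Etv5 (40.9 and 40.0) and the highest Fgfr1 (641 and 526) and Fgf9 (61.7 and 55.7). Tumor by tumor, cluster 7 had Fgf8 at 4.32 to 13.1 CPM, Fgfr3 at 4.68 to 9.80 CPM and Fgf9 at 54.8 to 68.1 CPM in all 5. Its Fgfr1 was 496 CPM in BP tumor 1, 744 in BP tumor 2 and 721 in the MP+BP tumor, but 237 in the PD+MP tumor and 135 in the MP tumor, where it was the lowest of 4 clusters (135 to 160 CPM). High Fgfr1 was thus not seen in this cluster in the MP tumor. In the PD+MP tumor Etv5 was 51.5 CPM in cluster 7 and 51.8 in cluster 22, above the 44.1 CPM of cluster 13. Cluster 19, of which 80.1% came from BP tumor 1 and whose leading genes included the epithelial junction genes Cdh1, Cldn6 and Cldn7, had the highest Fgfr2 (771 CPM), Spry2 (153) and Dusp6 (351). These are descriptions of clusters and carry no test.

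**Figure D3:**
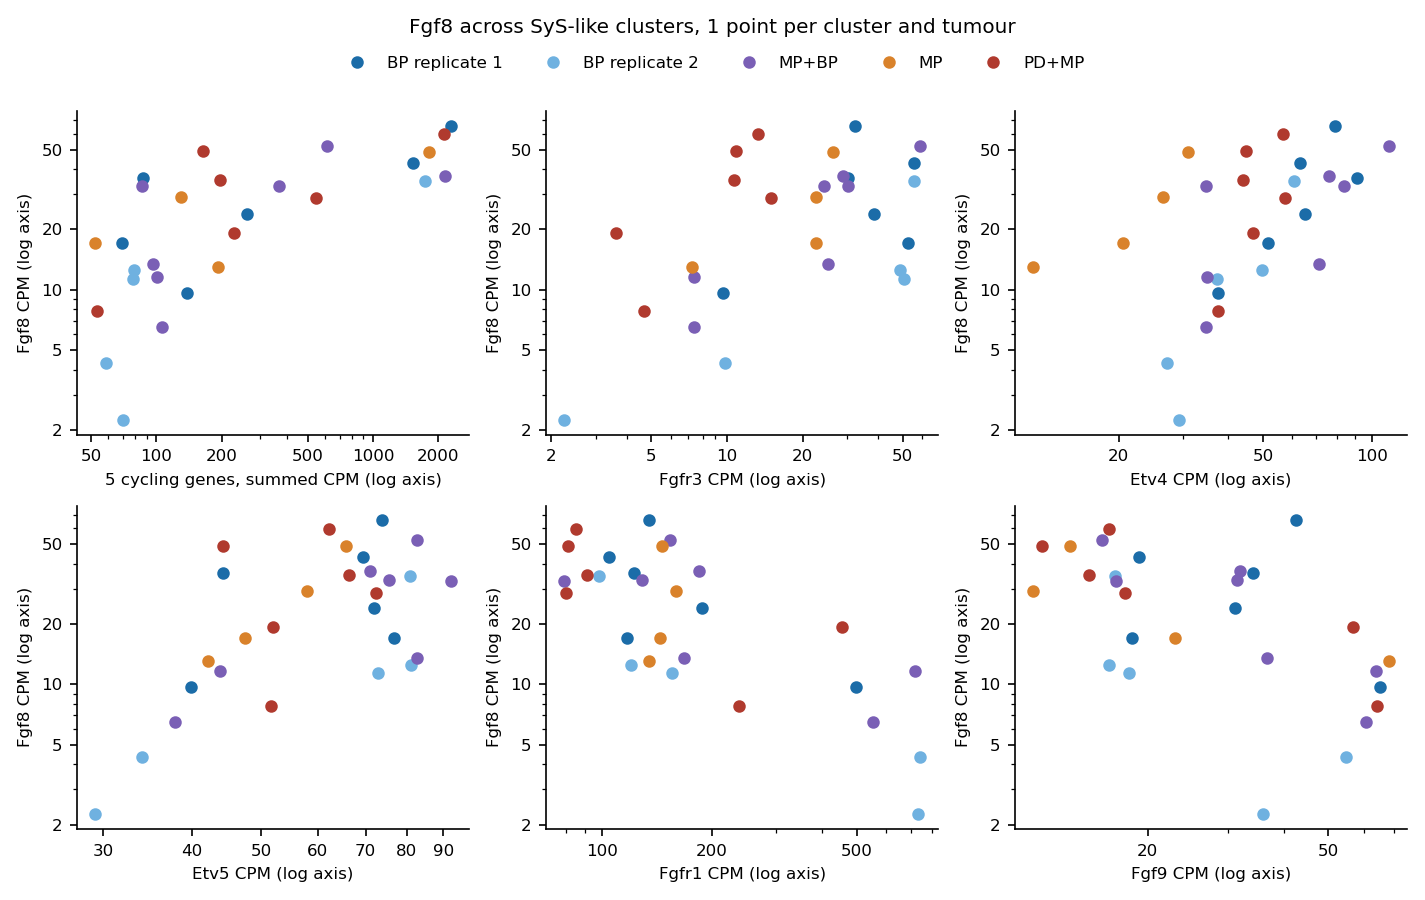
Level of Fgf8 (CPM, log axis) in 28 sums of 1 SyS-like cluster in 1 tumor against the summed level of 5 cycling genes and the levels of Fgfr3, Etv4, Etv5, Fgfr1 and Fgf9 (CPM, log axes), colored by tumor. The 8 sums of clusters 7 and 22 have Fgf8 at 2.25 to 19.3 CPM and Fgfr1 at 135 to 744 CPM, with cluster 7 of the MP and PD+MP tumors at the low end of Fgfr1 (135 and 237 CPM).

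Over 28 sums of 1 cluster in 1 tumor (at least 50 cells each, log2(CPM + 1), centered within tumor), Fgf8 correlated with Fgfr3 (Pearson r = 0.79), Etv4 (0.73) and Etv5 (0.69) and inversely with Fgfr1 (-0.76) and Fgf9 (-0.72). Many genes outside the pathway had coefficients of this size. Among 12639 genes ranked by r with Fgf8, percentiles were 97.2 for Fgfr3, 94.3 for Etv4, 91.6 for Etv5, 3.85 for Fgf9 and 2.54 for Fgfr1. The correlation of Fgf8 with Fgfr2 (0.22), Fgf18 (-0.46) and Spry4 (-0.37) was weaker. Fgfr3 and Etv5 were the most alike pair of members (0.87), and Fgfr1 was inverse to Fgfr3 (-0.84) and Etv5 (-0.79). Most of this pattern rested on clusters 7 and 22. Without them, over 20 sums and chosen after these values were seen, Fgf8 had r = 0.19 with Fgfr3, -0.0082 with Etv5, -0.24 with Fgfr1 and -0.18 with Fgf9, and that with Etv4 was 0.46; r was -0.51 between Fgf8 and Fgfr2, 0.33 between Fgfr3 and Etv5 and 0.0045 between Fgfr1 and Fgfr3. The correlation of Fgf8 with the cycling genes stayed at 0.75 (Mki67, Top2a) to 0.82 (Cdk1). These sums share libraries, depth and cluster boundaries, so the coefficients are descriptive. The 12639 genes were ranked over all 28 sums, clusters 7 and 22 included. Those with a pattern most like that of Fgf8 were H2afy (0.92), Arl6ip6 (0.92), Fads2 (0.91), Parp1 (0.91) and Zfp280b (0.91).

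In sums over all tumors, Fgfr3 and Etv5 were lowest and Fgf9 highest in the same 2 clusters. For this reason 300 bases at an annotated start of each gene are shown. They run from 250 bases before the start to 50 after it, in GRCm38.p6 by RefSeq, and are read 5′ to 3′ on the strand of the gene. Capitals mark GGAA on either strand (TTCC on the strand shown), the core recognized by ETS factors such as Etv4 and Etv5. Of the 10 members 6 had such windows. The windows lie at chr5:33721474-33721773 (plus strand) for Fgfr3, chr16:22439521-22439820 (minus strand) for Etv5 and chr14:58072436-58072735 (plus strand) for Fgf9.
Fgfr3: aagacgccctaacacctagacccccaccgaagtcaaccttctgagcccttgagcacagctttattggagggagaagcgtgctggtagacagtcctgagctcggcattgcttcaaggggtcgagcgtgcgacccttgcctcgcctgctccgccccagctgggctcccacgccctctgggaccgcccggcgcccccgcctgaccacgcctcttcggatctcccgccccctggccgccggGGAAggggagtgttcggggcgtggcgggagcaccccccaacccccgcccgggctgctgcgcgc
Etv5: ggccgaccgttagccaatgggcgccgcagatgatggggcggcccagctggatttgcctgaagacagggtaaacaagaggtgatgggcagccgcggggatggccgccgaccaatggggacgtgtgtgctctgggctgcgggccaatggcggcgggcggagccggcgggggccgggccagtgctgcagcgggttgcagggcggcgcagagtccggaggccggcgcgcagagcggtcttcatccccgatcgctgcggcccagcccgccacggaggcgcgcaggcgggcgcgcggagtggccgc
Fgf9: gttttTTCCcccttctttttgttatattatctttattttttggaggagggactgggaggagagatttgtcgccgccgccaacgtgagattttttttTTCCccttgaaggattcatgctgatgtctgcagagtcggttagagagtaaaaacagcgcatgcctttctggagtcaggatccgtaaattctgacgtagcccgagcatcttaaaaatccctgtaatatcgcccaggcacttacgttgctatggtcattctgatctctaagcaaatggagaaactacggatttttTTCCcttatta
The core occurred 1 time in the Fgfr3 window, 0 times in the Etv5 window and 3 times in the Fgf9 window, against a median of 3 over 32851 windows of the same length, of which 96.0% hold it at least once. A further window downstream held 5 cores for Fgfr3 (28.6% of windows have as many or more) and 6 for Etv5 (15.7%). The longer letters CCGGAAGT, which contain the core, were in none of the windows of the 6 members on either strand and in 3.89% of all windows. The Fgfr3 and Etv5 windows were 69.7% and 74.0% GC and the Fgf9 window 42.7%, with a median of 52.7% over all windows. These matches describe letters only.

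Fgf8 was higher in cycling cells. In the 3 SyS-like clusters with the highest sum of 5 cycling genes (9, 12 and 16; 1938, 1688 and 2118 CPM) Fgf8 was 45.7, 36.7 and 59.7 CPM. Within each tumor these clusters exceeded the other SyS-like cells: 46.5 against 19.0 CPM in BP tumor 1, 34.9 against 11.8 in BP tumor 2, 48.7 against 28.1 in the MP tumor, 36.7 against 15.7 in the MP+BP tumor and 59.7 against 37.4 in the PD+MP tumor. The direction was the same in 5 of 5 tumors. Cluster by cluster, Fgf8 did not follow the cycling sum throughout. Cluster 13, with a cycling sum of 165 CPM, had Fgf8 at 49.0 CPM, above clusters 9 and 12. Cluster 11, with a cycling sum of 545 CPM, had Fgf8 at 28.6 CPM. Without the cycling clusters, over 22 sums that included clusters 7 and 22, r was 0.81 for Fgfr3, 0.67 for Etv4, 0.64 for Etv5, -0.77 for Fgfr1 and -0.80 for Fgf9, and the cycling genes themselves went from 0.68 to 0.36 (Top2a), 0.66 to 0.29 (Birc5), 0.78 to 0.60 (Mki67), 0.76 to 0.63 (Cdk1) and 0.77 to 0.63 (Ccnb1).

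Co-detection was tested in 5 pairs of sums after thinning every SyS-like cell to 3000 UMIs. Cells with an Fgf8 UMI (162, 235, 411, 224 and 612 in the 5 tumors) were set against cells without one by edgeR with tumor as a block. Of the 8 other members tested, 0 passed by edgeR and 0 by DESeq2. Of 15007 genes, 2.11% were higher and 3.08% lower by edgeR (40.6% of the calls higher, and 59.3% by DESeq2). At an unadjusted p under 0.05 by edgeR, 911 of the 15007 genes were higher and 1410 lower, and 4 members passed. These were Fgfr1 (log2 fold change -0.21, SE 0.07, adjusted p = 0.0880), Fgfr2 (-0.10, adjusted p = 0.309), Fgfr3 (0.29, SE 0.14, adjusted p = 0.299) and Etv4 (0.25, SE 0.11, adjusted p = 0.215). Etv5 (-0.11), Spry4 (-0.25), Fgf9 (0.23) and Fgf18 (0.06) had adjusted p-values of 0.494 to 0.927. Fgfr4 was below the filter on low counts and was not tested. All 5 cycling genes were higher in Fgf8-detected cells, led by Birc5 (0.90), Cdk1 (0.87), Ccnb1 (0.86) and Top2a (0.84), and 4 of 10 stress genes were lower (Atf3 -0.37, Fosb -0.24, Junb -0.16, Egr1 -0.14). Fgf10 (-0.45, adjusted p = 0.0322) and Flrt2 (-0.46, adjusted p = 1.60e-05) were also lower, and 0 of the 13 tested other feedback genes were called.

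Cell by cell, the number of cells with both Fgf8 and Fgfr3 was 0.915 to 1.41 times (median 1.27) the number expected from their shares within a tumor, above 1 in 4 of 5 tumors. For Fgf8 and Etv4 it was 0.859 to 1.49 times (median 1.19), also above 1 in 4 of 5. For Spry4 it was 0.686 to 0.926 (median 0.856) for Fgfr1 0.885 to 0.981 (median 0.920) and for Fgfr2 0.936 to 0.990 (median 0.963), below 1 in 5 of 5 tumors for each. Fgf9 (median 1.15) and Fgf18 (1.08) were above 1 in 4 of 5 tumors and Etv5 (0.915) in 1 of 5, and Fgfr4 had 2 doubly positive cells in all. With the expectation taken within clusters the medians were 1.22 for Fgfr3, 1.16 for Fgf9, 1.14 for Etv4, 1.08 for Fgf18, 0.968 for Fgfr2, 0.962 for Fgfr1, 0.924 for Etv5 and 0.832 for Spry4, while that of Ccnb1 went from 1.95 to 1.07. Counts of doubly positive cells were small for Fgfr3, 132 over all tumors, and for Spry4, 93. At least 1 of the 4 receptors was detected in 59.7% to 83.7% of SyS-like cells at this depth, at least 1 of the 3 ligands in 15.3% to 22.1% and both in 10.6% to 18.3%. Fgfr2 alone was detected in 46.5% to 74.2% of these cells, so the receptor shares carry the uncertainty of its gene model. A receptor was detected in 58.8% to 86.0% of cells with a ligand and in 59.96% to 83.2% of those without, so the 2 shares were close in each tumor.

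**Figure D4:**
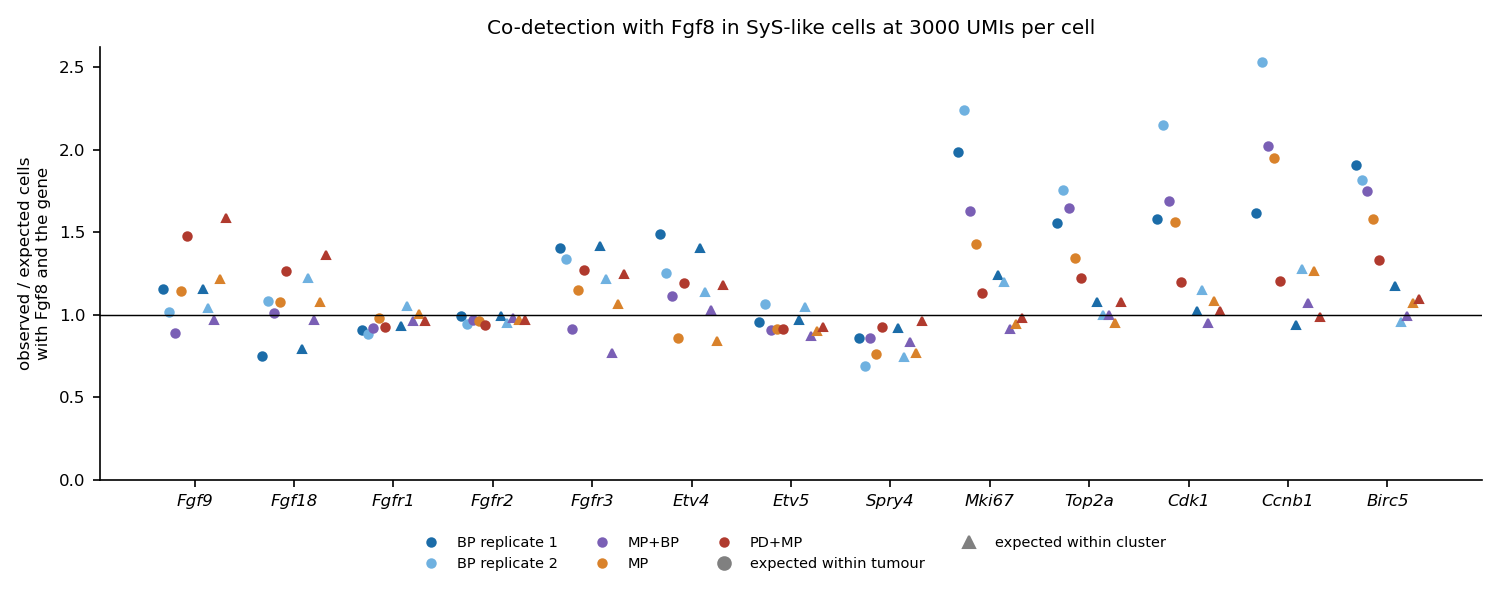
Observed over expected number of SyS-like cells with a UMI of Fgf8 and of the named gene after thinning to 3000 UMIs, 1 point per tumor, with the expectation taken within the tumor (circles) or within clusters of the tumor (triangles). Fgfr3, Etv4, Fgf9 and Fgf18 lie above 1 in 4 of 5 tumors (circles), and cycling genes return to about 1 within clusters.

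Between histologies, 3 of the 4 labels held 1 tumor each, so the 3 tumors with a biphasic part (BP, BP, MP+BP) were set against the MP and PD+MP tumors. No member of the 10 passed by edgeR (0% of 20665 genes higher, 0% lower, smallest adjusted p = 0.426), and DESeq2 called 457 genes. At an unadjusted p under 0.05 by edgeR, 1162 genes were higher and 762 lower. In simulated counts this comparison recovered 6% of 2-fold changes and 67% of 4-fold changes. Those counts were drawn with the same dispersion for every gene, not fitted to these tumors, so the rates hold for that setting only. Fgf8 was 17.7 to 22.5 CPM in the 3 tumors with the biphasic label and 33.3 and 44.7 in the others, without overlap. Its log2 fold change was -1.07 (SE 0.22, adjusted p = 0.470 by edgeR); it was -1.10 (adjusted p = 0.00894) by DESeq2 and -1.32 (adjusted p = 0.0491) by edgeR without the MP tumor. Over the alternatives tried the adjusted p ran from 0.00894 to 0.980, with a log2 fold change of -1.32 to -0.82. Fgf8 was therefore lower with the biphasic label in each setting, and the call depended on the tool and the tumors.

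Outside the 3 cycling clusters Fgf8 was 28.1 CPM in the MP tumor, 37.4 in the PD+MP tumor and 11.8 to 19.0 in the others. The SyS-like clusters outside those 3 were not free of cycling genes. These summed to 545 CPM in cluster 11, of which 99.4% came from the PD+MP tumor, and to 75.0 CPM in cluster 0. The 5 cycling genes summed to 311, 505 and 439 CPM in the 3 tumors with the biphasic label and to 552 and 842 CPM without it; Birc5, Ccnb1 and Cdk1 did not overlap between the sides, and their part in the difference of Fgf8 was not tested. Fgf9, Fgfr3, Etv4 and Etv5 were higher with the biphasic label without overlap, at 27.0 ± 10.4 against 14.4 ± 2.21, 40.0 ± 13.5 against 17.6 ± 8.25, 58.1 ± 8.42 against 38.2 ± 15.6 and 75.1 ± 2.58 against 60.2 ± 1.40 CPM (SD, n = 3 and 2). Among 27059 genes 17.3% did not overlap in that direction and 7.95% in the other. The adjusted p-values by edgeR were 0.539, 0.532, 0.586 and 0.649. The other members overlapped between the sides, with log2 fold changes of 0.39 for Fgf18, 0.45 for Fgfr1, 0.29 for Fgfr2, 0.14 for Fgfr4 and 0.48 for Spry4 (adjusted p = 0.656 to 0.923 by edgeR), and none of the genes of the other FGF lists was called. Fgf8 and Fgfr3 thus had opposite directions between the 2 sides, with neither called.

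**Figure D5:**
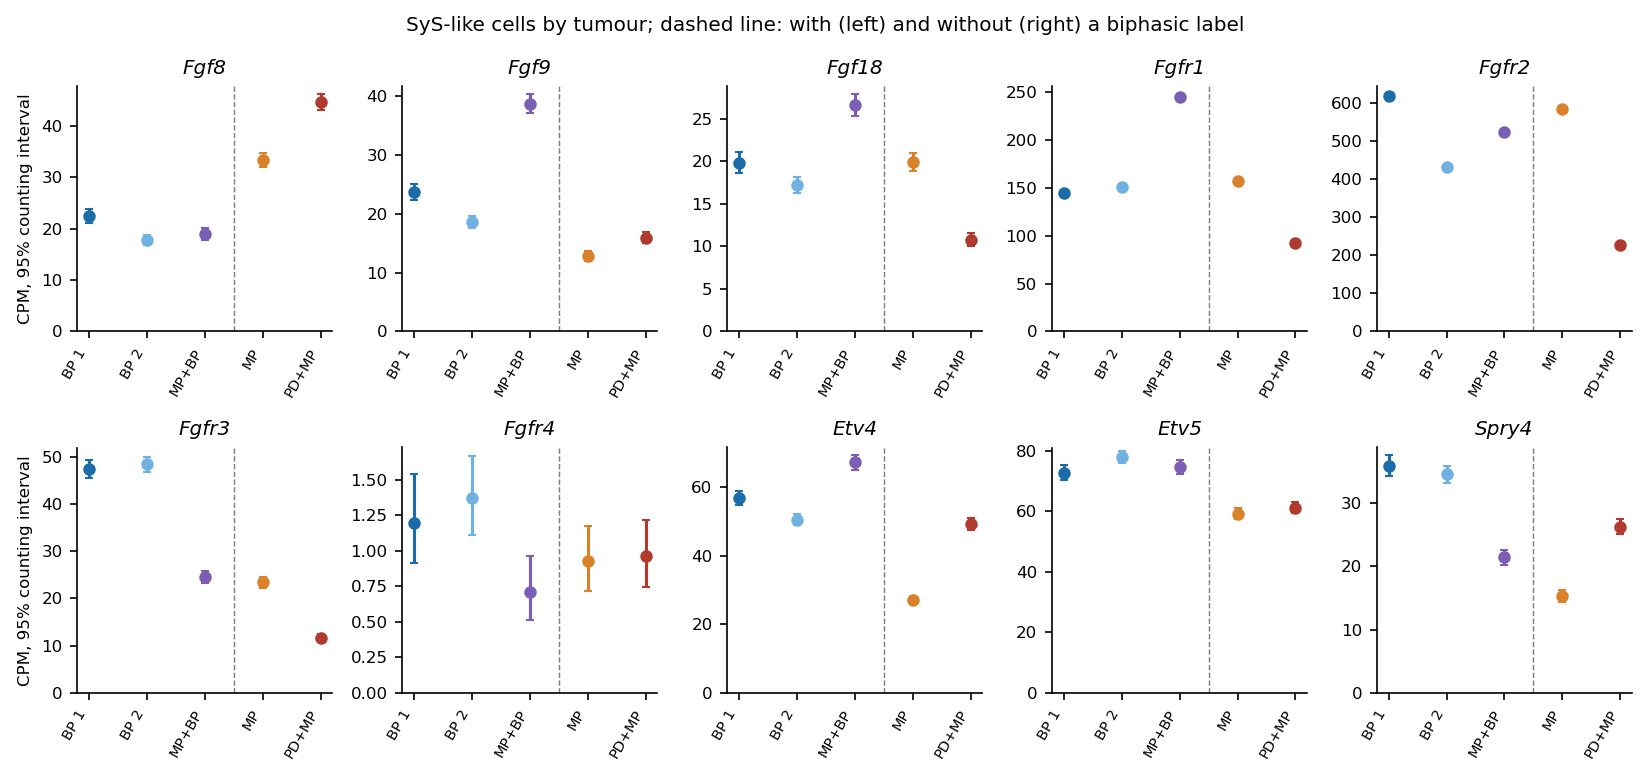
SyS-like level (CPM) of each member in the 5 tumors, 1 point per tumor with a 95% interval for counting error only; the dashed line parts the 3 tumors with a biphasic label (left) from the others. Fgf8 is higher in the MP and PD+MP tumors (33.3 and 44.7 CPM) than in the 3 tumors with a biphasic label, and Fgfr3 is highest in the 2 BP tumors.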

How the data were processed

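Single-cell RNA was measured in 5 hSS2 tumors by 10x 3′ v3.1 libraries. The authors deposited filtered matrices of raw UMI counts per gene and cell, made with Cell Ranger 7.2.0 per the file headers on mm10 per the labels; no doublets were marked in them. Cells with at least 750 genes and at most 25% mitochondrial UMIs were kept, as in the study's methods, and Scrublet scores removed the expected share of doublets (0.8% per 1000 cells; 5.35% to 8.27% per tumor). Clustering used scanpy 1.11.5 and leidenalg 0.10.2 (3000 variable genes, Pearson residuals with theta 100, 30 components, 20 neighbors, resolution 1); listed, mitochondrial, ribosomal, hemoglobin and sex-linked genes and EGFP were left out. A cluster was named when at least 3 markers of a class were raised in it (3 times the 25th percentile of clusters, 25% of the highest cluster, 5% of cells) and no other class had more markers among its 10 leading genes; shallow clusters, under 33.3% of their tumors' median depth with no own marker leading, stayed unnamed. Counts summed per tumor and class (50909100 to 73270400 UMIs for SyS-like, down to 582694 for other classes) were tested with edgeR 4.0.16 in R 4.3.3 (TMM, filterByExpr, quasi-likelihood, adjusted p threshold 0.05). DESeq2 1.42.0, other scalings, filters, namings, thinning depths and leaving out each tumor were alternatives. In simulated counts, 4-fold changes were recovered in 67% to 87% of genes and 2-fold changes in 6% to 22%, across the 5 comparisons. The simulation used a fixed dispersion for every gene, not fitted to these tumors. The blocks pair sums of the same tumor.

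The members and lists were chosen with earlier results of these data known. All members are named in each comparison; from every other list up to 4 called genes with the largest absolute log2 fold change are named, and for Fgf8 the 5 genes most correlated over cluster sums. Intervals cover counting error only.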

Additional observations from a re-analysis of the deposited data

Results flagged for a closer look

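Fgf8 and Fgfr1 were present in 6 clusters with SyS-like markers that no comparison used. Of these, clusters 3, 10 and 23, of 2634, 1445 and 387 cells, held 6, 6 and 7 of the 12 SyS-like markers and EGFP at 41.5, 37.1 and 38.0 CPM, but stayed unnamed because Acta2, Trac and Col1a1, markers of other classes, were among their leading genes. Fgf8 was 19.5 CPM in cluster 3, 15.03 in cluster 10 and 14.9 in cluster 23, above the levels in macrophage-like cells (0.481 to 3.10 CPM). Fgfr1 was 99.3 CPM in cluster 3, 869 in cluster 10 and 668 in cluster 23, against 4.66 to 13.8 CPM in macrophage-like cells and 641 CPM in the highest SyS-like cluster. Of the cells of cluster 10, 91.8% came from the MP+BP tumor, and of those of cluster 3, 37.9% and 61.6% came from BP tumors 1 and 2. Clusters 6, 14 and 17 (1994, 1294 and 753 cells), with 6, 8 and 6 of the 12 markers, also stayed unnamed. Their median depth was 31.6%, 31.9% and 33.0% of that of their tumors, under the limit for naming. Cluster 14 in addition had the erythroid-like markers Hba-a1 and Hbb-bs among its leading genes. In clusters 6, 14 and 17 Fgf8 was 19.8, 10.1 and 19.9 CPM and Fgfr1 141, 100.2 and 94.4 CPM, from 118, 43 and 60 Fgf8 UMIs. With clusters 3, 10 and 23 joined to the SyS-like class, a naming chosen after seeing the data, 7, 9 and 9 members were called against stromal, macrophage-like and endothelial-like cells, the same counts as without them.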

How the results depend on the processing

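Against the 3 classes, the members called kept counts within 1.5 times of 7, 9 and 9 in each alternative, with 6 to 9, 9 to 10 and 8 to 9 when 1 tumor was left out; no member changed direction there. With no replicate block (tumor not in the model) 7, 10 and 9 members were called, and 0 in the co-detection test, where the genes called went from 778 to 0; the other block calls did not change apart from Fgfr4 against macrophage-like cells. Genes called between histology labels went from 0 to 457 with DESeq2 and from 0 to 673 without the MP tumor, each with 1 member, Fgf8; leaving out a tumor gave 0 to 1 members, and without MP or PD+MP the lone tumor of that side was assumed to vary like the rest. In that comparison Fgfr4 ran from -0.096 to 0.35 and Fgfr2 from -0.22 to 1.06 (log2) when 1 tumor was left out.

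The co-detection test moved most. Members called went from 0 to 2 with no filter on low counts (Fgfr1, Fgfr2), 2 with doublets kept (Fgfr1, Fgfr2), 1 with the unnamed clusters joined (Fgfr3), 1 at 5000 UMIs (Fgfr3), 2 with no thinning (Fgfr3, Etv4), and 0 to 1 leaving out a tumor (Fgfr1 without MP). Genes called were 58 with the undetected cells weighted to the cluster mix, where Fgfr1 turned to 0.016, 307 with DESeq2, 1345 at 5000 UMIs, 3071 with no thinning and 503 without BP tumor 2. Fgf18 turned to -0.0042 with no filter, -0.056 with doublets kept, -0.087 with at least 1500 genes per cell, -0.0070 with no replicate block, -0.097 at 2000 and -0.21 at 5000 UMIs, and ran from -0.028 to 0.11 leaving out a tumor. Fgf9 turned to -0.031 with doublets kept, -0.038 with the automatic doublet threshold, -0.071 with at least 1500 genes, -0.094 with the unnamed clusters joined, -0.23 at 2000 UMIs, -0.13 at 5000 UMIs and -0.17 with no thinning, where Fgfr2, Etv5 and Spry4 turned to 0.021, 0.10 and 0.018. The cause was not tested. With no thinning, deeper cells are more often Fgf8-detected by construction.

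Depth limits Fgfr4, Fgf16 and Fgf20 and the stromal, endothelial-like and fibroblast-like sums of the PD+MP tumor, and each label group but BP holds 1 tumor. Genes called against stromal cells were 4090, and 2515, 2701 and 2704 without BP tumor 1, BP tumor 2 and the MP tumor.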
